A study of Homo sapiens with 4 samples.

Results

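The heat shock proteins, chaperonins and J proteins were examined as 89 genes, of 20322 genes in the table. They were chosen by symbol alone: HSPA, HSPB, HSPH1 and HSP90 genes with TRAP1, HSPD1 and HSPE1, the subunits of the CCT chaperonin with TCP1, the J proteins DNAJA, DNAJB and DNAJC, the BAG genes, STIP1, HSF1 and HSF2. By role they were 15 HSP70 and HSP110 genes, 4 HSP90 genes, 8 small heat shock proteins, 2 subunits of the mitochondrial chaperonin, 9 CCT genes, 42 J proteins, 6 BAG genes, 1 organizing co-chaperone and 2 heat shock transcription factors. Each gene was represented by 1 protein-coding target. The rule did not use any measured value.

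The RNA came from HT-29, an established human colorectal adenocarcinoma line. The gene of IMP1 (IGF2BP1, an RNA-binding protein of fetal tissue and tumors) had been targeted with CRISPR/Cas9 in every library, and all cells were grown in puromycin. The null group (2 libraries) carried an empty PiggyBac vector (PB*-empty), and the IMP1-OE group (2 libraries) carried a PiggyBac vector for FLAG-tagged IMP1 with a short UTR (PB*-FLAG-IMP1-short UTR). The labels name a mouse liver metastasis as the tumor source of the lines. IMP1-OE is thus expression from a transgene on the edited background that null shares. The design text counts 2 cell lines per genotype, but the sources do not say whether these were separate clones or cultures. The p-values therefore capture no more than the spread among these libraries, part or all of which may be technical.

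HSP70 proteins bind short exposed stretches of unfolded proteins and release them in a cycle driven by ATP. J proteins bring clients to HSP70 and start ATP hydrolysis, while HSP110 and BAG proteins help nucleotide leave. HSP90 acts later on partly folded clients such as kinases and receptors, and the ring-shaped CCT and HSPD1/HSPE1 chaperonins enclose clients in the cytosol and in mitochondria. HSF1 is the main activator of the stress-inducible genes among them.

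Library totals ran from 9343429 to 10594813 estimated counts. IGF2BP1, the targeted gene, had 37 and 16 counts in null and 71 and 112 in IMP1-OE. Its log2 fold change was 1.69 (SE 0.56, edgeR adjusted p 0.453). ARSI took 17.8% and 17.3% of the counts in null and 8.01% and 12.4% in IMP1-OE. Of the 12 epithelial marker genes, EPCAM, KRT8, KRT18 and KRT19 were abundant in every library. CDX2, an intestinal transcription factor, had 47 and 2 counts in null and 0 and 3 in IMP1-OE, and CDX1 had 9 counts in null replicate 1 and 0 elsewhere. The 6 hepatocyte genes summed to 438 and 226 CPM in null and 686 and 725 CPM in IMP1-OE, nearly all of it SERPINA1 (log2 fold change 1.09), while ALB and APOA1 had 0 counts in every library. The 6 immune genes summed to 2834 and 1446 CPM in null and 1911 and 1757 CPM in IMP1-OE, mostly LYZ, with CD3E at 0 in every library and CD14 at 18.8 and 52.3 CPM in null and 14.9 and 8.84 CPM in IMP1-OE. The 6 stromal genes summed to 2.09 to 13.1 CPM and the 4 endothelial genes to 2.35 to 4.09 CPM. The part of SERPINA1, LYZ and CD14 in the results below was not tested. The summed level of the 12 interferon-stimulated genes was 667 CPM in null replicate 1, 5695 in null replicate 2, 553 in IMP1-OE replicate 1 and 729 in IMP1-OE replicate 2, so null replicate 2 stood apart on these genes. Null replicate 1 stood apart on others: CEACAM5, an epithelial adhesion gene, was at 59.3 CPM there and at 3.83 to 10.2 CPM in the other libraries, and CDH17 at 12.3 CPM against 0.438 to 2.76 CPM.

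The 89 genes together held 1.83% and 1.85% of all counts in null and 2.44% and 2.46% in IMP1-OE. Without the counts of ARSI these shares were 2.23% and 2.23% in null and 2.66% and 2.81% in IMP1-OE. Levels compared between genes are deposited TPM, which are scaled by target length. HSPA8, the constitutive cytosolic HSP70, had the highest mean TPM of the 89 genes, with 1899 and 2418 TPM in null and 3569 and 4103 TPM in IMP1-OE. HSP90AB1, the constitutive cytosolic HSP90, followed with 1734 and 1513 TPM in null and 2167 and 2296 TPM in IMP1-OE. HSPE1, the lid of the mitochondrial chaperonin, came next at 1079 and 638 TPM in null and 1268 and 1048 TPM in IMP1-OE, and its range overlapped between groups. HSP90AA1, the inducible cytosolic HSP90, had 761 and 816 TPM in null and 1026 and 1125 TPM in IMP1-OE. The ranges of HSPE1 and HSP90AA1 over the 4 libraries overlapped, as did those of HSPA8 and HSP90AB1, although HSPA8 was the higher of that pair in each library. The 10 most abundant of the 89 genes made up 64.7% to 67.7% of their summed TPM.

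**Figure D1:**
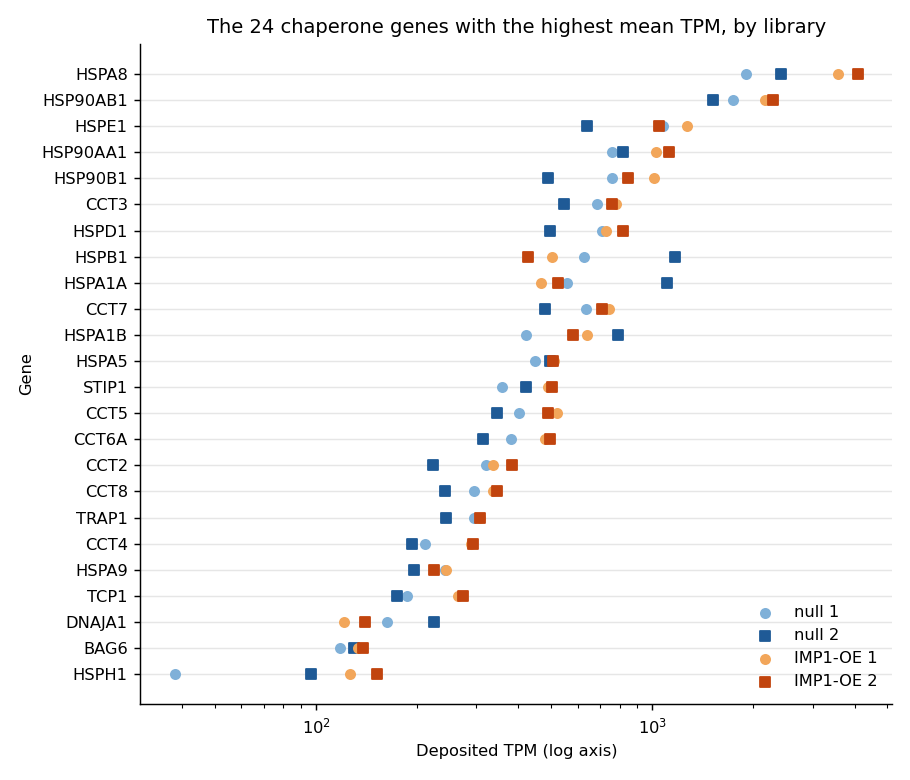
Deposited TPM (log axis) of the 24 heat shock and chaperone genes with the highest mean TPM, 1 point per library, circles for replicate 1 and squares for replicate 2 of null (blue) and IMP1-OE (orange). HSPA8 is at 1899 and 2418 TPM in null and at 3569 and 4103 TPM in IMP1-OE.

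The summed TPM of the 89 genes was 14436 and 14940 in null and 18278 and 18705 in IMP1-OE. HSPA8 made up 13.2% and 16.2% of this sum in null and 19.5% and 21.9% in IMP1-OE. Without HSPA8 the sum was 12537 and 12522 TPM in null and 14709 and 14603 TPM in IMP1-OE. The higher sum in IMP1-OE was thus present with and without its most abundant gene. TPM are shares of a fixed total, so these sums also depend on the share of ARSI. That share was 17.8% and 17.3% of counts in null and 8.01% and 12.4% in IMP1-OE. Its part in the TPM sums was not tested.

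After a filter on low counts, 76 of the 89 genes were tested with edgeR's quasi-likelihood test. The 13 others had at most 24 counts in any library, and 3 of them, DNAJB8, DNAJB13 and HSPB2, had 0 counts in every library. None of the 76 passed an adjusted p of 0.05, a threshold that 0% of the 12113 genes tested passed. With DESeq2 1 of the 89 genes passed, HSPA8, which was higher in IMP1-OE, where 1.28% of all genes passed and 0.428% were higher. The authors' deposited table likewise had HSPA8 as the 1 call among the 78 genes with an adjusted p there. Its p-values for these genes match those of DESeq2 here, so it is not separate evidence. There, 12 of 86 genes were higher at an unadjusted p under 0.05, where 3.1% of all genes were, and 6 were lower, where 4.44% were. All other differences below are differences between these libraries that did not pass the adjusted test.

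Of the 76 genes, 41 had a higher fitted level in IMP1-OE (53.9%, against 48.1% of all genes) and 35 a lower one (46.1%, against 51.9%). At an unadjusted edgeR p under 0.05, 11 were higher (14.5%, against 4.34% of all genes) and 6 were lower (7.89%, against 5.84%). The groups did not overlap, with both IMP1-OE libraries above both null libraries, for 28 genes (36.8%, against 21.3% of all genes), and with both below for 15 (19.7%, against 21.9%). The median log2 fold change was 0.08, beside -0.02 over all genes tested. The lower genes sat close to the background share and the higher ones above it. By family, all 4 HSP90 genes and 8 of 9 CCT genes were fitted higher. Of the J proteins 23 of 37 were fitted lower (62.2%, beside 51.9% of all genes), and the difference between families was not tested.

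**Figure D2:**
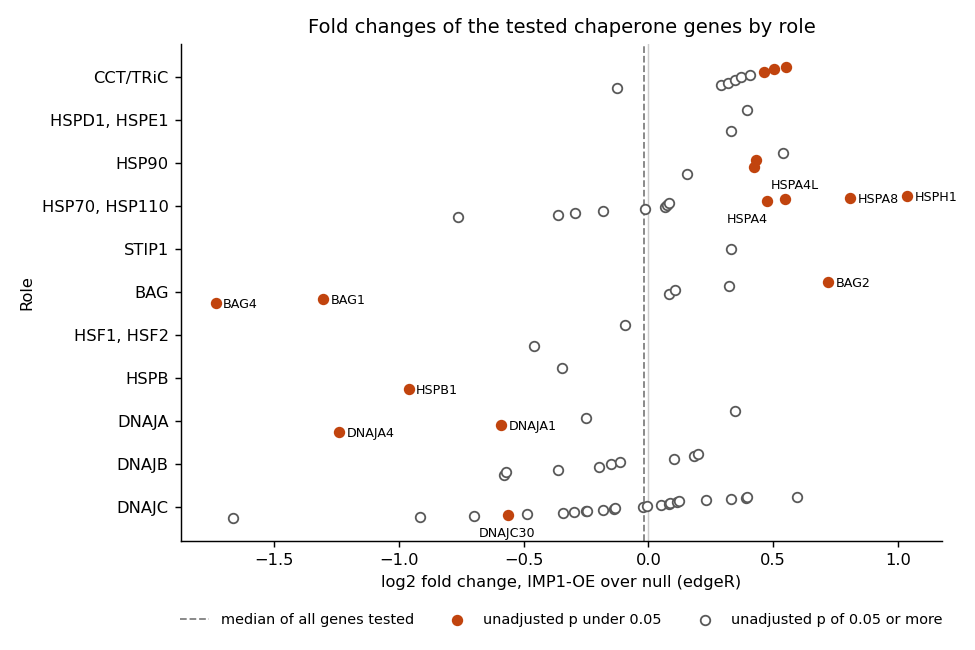
Log2 fold change of IMP1-OE over null (edgeR, horizontal axis) by role (vertical axis), 1 point per tested gene, filled at an unadjusted p under 0.05, with a dashed line at the median of all genes tested and HSPA12B left out for its low counts. The 4 HSP90 points lie above 0, as do the CCT points other than CCT6B, and 23 of the 37 J proteins lie below 0.

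HSPA8 was measured at 2389 and 2915 CPM (counts scaled to library size after TMM normalization) in null and at 4284 and 5008 CPM in IMP1-OE. Both IMP1-OE libraries lay above both null libraries. The fitted level was 1.75-fold higher in IMP1-OE (log2 fold change 0.81, SE 0.18), with an edgeR adjusted p of 0.433. DESeq2 here gave a log2 fold change of 0.81 and an adjusted p of 0.0137. The authors' deposited DESeq table had the same adjusted p with a log2 difference of 0.70. Its log2 differences are not a like measure, as for BAG1 at -0.20 there and -1.30 with DESeq2 here. The DESeq2 call was lost when either IMP1-OE library was left out, with adjusted p of 1.00 both times, and it was kept without either null library. Wherever 1 library of a group is left, here and below, it is assumed to vary like the libraries of the other group.

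HSPH1, the inducible HSP110 and a nucleotide exchange factor of HSP70, was at 111 and 271 CPM in null and at 352 and 432 CPM in IMP1-OE. The null libraries differed 2.43-fold from each other, more than the IMP1-OE libraries did. The fitted level was 2.05-fold higher in IMP1-OE (log2 fold change 1.04, SE 0.41, edgeR adjusted p 0.484). The value depended on both null libraries: without null replicate 1 the log2 fold change was 0.53 (edgeR adjusted p 0.130), and without null replicate 2 it was 1.82 (edgeR adjusted p 0.0355).

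The other HSP110 genes were less variable within groups. HSPA4 was at 203 and 179 CPM in null and at 268 and 262 CPM in IMP1-OE (log2 fold change 0.47, SE 0.17). HSPA4L was at 44.6 and 46.9 CPM in null and at 66.1 and 67.8 CPM in IMP1-OE (log2 fold change 0.55, SE 0.18). In both genes the groups did not overlap, the unadjusted edgeR p was 0.0302 and 0.0210, and the adjusted p was 0.459 and 0.453.

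HSPA1A and HSPA1B, the stress-inducible cytosolic HSP70 genes, encode nearly the same protein, so short fragments can be split between them and their separate counts are uncertain. HSPA1A was at 745 and 1413 CPM in null and at 594 and 678 CPM in IMP1-OE. HSPA1B was at 592 and 1064 CPM in null and at 853 and 788 CPM in IMP1-OE. HSPA1A was lower in both IMP1-OE libraries than in either null library, while the groups overlapped for HSPA1B. The log2 fold changes were -0.76 (SE 0.31, edgeR adjusted p 0.492) and -0.01 (edgeR adjusted p 0.994). Summed, the pair had 1337 and 2477 CPM in null and 1447 and 1466 CPM in IMP1-OE, so null replicate 2 alone was high and the groups overlapped (log2 fold change -0.39, SE 0.30, edgeR adjusted p 0.693).

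The balance of these genes differed between the groups. The TPM ratio of HSPA8 to the pair was 1.94 and 1.27 in null and 3.23 and 3.72 in IMP1-OE. The TPM ratio of HSPA1A to HSPA1B was 1.32 and 1.39 in null and 0.730 and 0.903 in IMP1-OE. By these separate estimates HSPA1A was the more abundant copy in each null library and HSPA1B in each IMP1-OE library. This split is uncertain, because short fragments can be assigned to either copy.

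**Figure D3:**
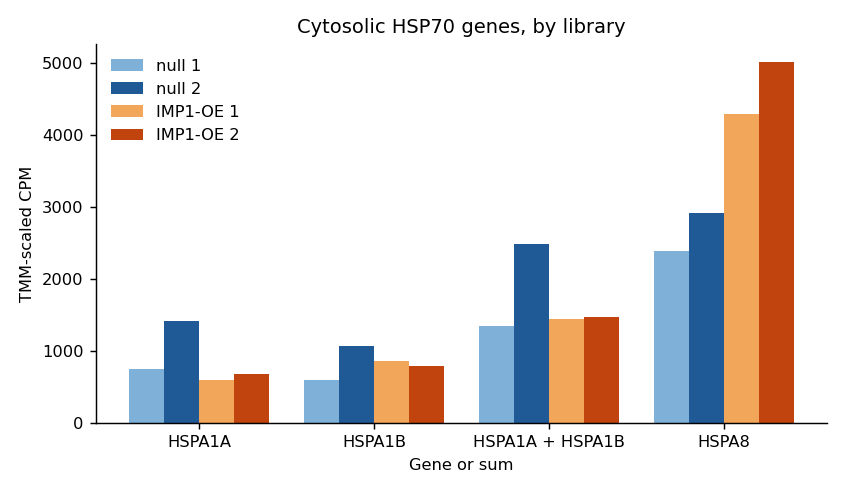
TMM-scaled CPM of HSPA1A, HSPA1B, their sum and HSPA8, 1 bar per library, axis from 0. HSPA8 is above null in both IMP1-OE libraries, while HSPA1A and HSPA1B are highest in null replicate 2.

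HSP70 genes of other compartments differed little. HSPA5, the HSP70 of the endoplasmic reticulum (BiP), was at 980 and 1039 CPM in null and at 1065 and 1074 CPM in IMP1-OE, a log2 fold change of 0.08. HSPA9, the mitochondrial HSP70 (mortalin), was at 595 and 461 CPM in null and at 572 and 536 CPM in IMP1-OE, a log2 fold change of 0.07. HSPA12B, a distant relative of HSP70, had 2 and 0 counts in null and 11 and 35 in IMP1-OE, too few for its fold to be read. HSPA6, a strictly inducible HSP70 gene, had 7 and 6 counts in null and 5 and 5 in IMP1-OE and was not tested. Of the 13 HSP70 and HSP110 genes tested, 5 were higher at an unadjusted edgeR p under 0.05 (38.5%, beside 4.34% of all genes), HSPA12B with its few counts among them, and 0 were lower (beside 5.84%).

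HSF1 binds the heat shock element, an array of inverted GAA units. The promoter windows of RefSeq (GRCh38.p14, 250 bases before to 50 after each start) were searched for 3 units, written GAANNTTCNNGAA or TTCNNGAANNTTC, which are each other's reverse complement, so that both strands are covered and overlapping matches are counted. Of the 89 genes, 79 had a window, and 7 of these (8.86%) held a match, where 166 of 27305 genes (0.608%) did. The shorter arrays of 2 units, GAANNTTC or TTCNNGAA, were in 28 of the 79 (35.4%) and in 16.2% of all genes. The matches before a start site are shown. They lie in HSPA8 and in both cytosolic HSP90 genes, which were higher in IMP1-OE at an unadjusted edgeR p under 0.05. They also lie in HSPD1 and DNAJB6, fitted higher at unadjusted edgeR p of 0.206 and 0.335, and in HSPA6, which was not tested. DNAJA1, fitted lower, has its match after the start site and is not shown. The windows searched gave no match of 3 units for HSPA1A, HSPA1B, HSPB1, DNAJB1 or BAG3. Their log2 fold changes were -0.76, -0.01, -0.96, 0.10 and 0.08, in that order. Capitals mark the matched letters, each run is read 5′ to 3′ along the gene, and a match describes letters, not binding.
HSPA8 proximal: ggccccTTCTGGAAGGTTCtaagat
HSPA8 distal: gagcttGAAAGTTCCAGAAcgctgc
HSP90AA1: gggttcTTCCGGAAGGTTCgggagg
HSP90AB1 distal: agcaggTTCTGGAAGATTCatgggc
HSP90AB1 proximal: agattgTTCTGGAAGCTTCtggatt
HSPD1: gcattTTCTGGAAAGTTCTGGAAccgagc
DNAJB6: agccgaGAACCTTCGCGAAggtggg
HSPA6: gaaaggTTCGCGAAAGTTCgcggcg

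On GRCh38.p14 the HSPA8 stretches are chr11:123062173-123062197 and chr11:123062348-123062372 on the minus strand, with 42 and 217 bases between the match and the start site. The HSP90AA1 stretch is chr14:102087114-102087138 on the minus strand, 75 bases from its start site. The HSP90AB1 stretches are chr6:44247772-44247796 and chr6:44247825-44247849 on the plus strand, 152 and 99 bases from the start site. The HSPD1 stretch, chr2:197500062-197500090 on the minus strand and 227 bases away, holds overlapping matches. The DNAJB6 stretch is chr7:157336867-157336891 and the HSPA6 stretch chr1:161524460-161524484, both on the plus strand, 118 and 61 bases away. The match of DNAJA1 lies after its start site. Of the 6 tested genes with a match, 5 were fitted higher in IMP1-OE, where 48.1% of all genes were, and DNAJA1 lower (median log2 fold change 0.38). Of the 61 tested genes with a window and no match, 31 were higher and 30 lower (median 0.05). At an unadjusted edgeR p under 0.05, 3 genes with a match were higher and 1 lower, and 6 without a match were higher and 4 lower. The inducible HSPH1 was among those 6. Of all genes tested, 4.34% were higher and 5.84% lower at that threshold. Tested genes without a window are in neither group. A relation between the match and the fold change was not tested.

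HSP90AB1, with a pair of matches above, was at 2552 and 2134 CPM in null and at 3041 and 3277 CPM in IMP1-OE (log2 fold change 0.43, SE 0.17). HSP90AA1 was at 1369 and 1407 CPM in null and at 1760 and 1964 CPM in IMP1-OE (log2 fold change 0.42, SE 0.16). The groups did not overlap in either gene, and the edgeR adjusted p was 0.484 and 0.474. The TPM ratio of HSP90AB1 to HSP90AA1 was 2.28 and 1.85 in null and 2.11 and 2.04 in IMP1-OE, so the groups overlapped and the balance of both genes was similar.

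HSP90B1, the HSP90 of the endoplasmic reticulum (GRP94), was at 1178 and 728 CPM in null and at 1499 and 1274 CPM in IMP1-OE (log2 fold change 0.54, SE 0.26, edgeR adjusted p 0.536). Its null libraries differed 1.62-fold. TRAP1, the mitochondrial HSP90, was at 365 and 289 CPM in null and at 361 and 368 CPM in IMP1-OE (log2 fold change 0.16), with overlapping groups. STIP1 (HOP), which bridges HSP70 and HSP90, was at 425 and 480 CPM in null and at 557 and 581 CPM in IMP1-OE. Its groups did not overlap (log2 fold change 0.33, SE 0.16, edgeR adjusted p 0.539).

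The CCT chaperonin is a double ring of 8 different subunits and folds actin and tubulin. All 8 genes, TCP1, CCT2, CCT3, CCT4, CCT5, CCT6A, CCT7 and CCT8, were fitted higher in IMP1-OE, with log2 fold changes from 0.29 (CCT3) to 0.55 (TCP1) and a median of 0.39. Their summed TPM was 3119 and 2513 in null and 3749 and 3746 in IMP1-OE. In 7 of the 8 both IMP1-OE libraries were above both null libraries (87.5%, beside 21.3% of all genes), the exception being CCT2. At an unadjusted edgeR p under 0.05, 3 of the 8 were higher (37.5%, beside 4.34% of all genes).

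These 3 were TCP1, CCT4 and CCT6A. TCP1 was at 243 and 218 CPM in null and at 329 and 346 CPM in IMP1-OE (log2 fold change 0.55, SE 0.17, edgeR adjusted p 0.447). CCT4 was at 278 and 244 CPM in null and at 365 and 375 CPM in IMP1-OE (log2 fold change 0.50, SE 0.17, edgeR adjusted p 0.453). CCT6A was at 546 and 432 CPM in null and at 657 and 692 CPM in IMP1-OE (log2 fold change 0.47, SE 0.18, edgeR adjusted p 0.484). In each the fold between groups exceeded the fold between the libraries of either group, though the null libraries of CCT6A lay 1.27-fold apart. CCT3, the subunit with the highest mean TPM, was at 753 and 573 CPM in null and at 816 and 808 CPM in IMP1-OE. CCT5 was at 739 and 606 CPM in null and at 911 and 871 CPM in IMP1-OE (log2 fold change 0.41). CCT2 was at 342 and 227 CPM in null and at 341 and 394 CPM in IMP1-OE, so 1 null library was level with an IMP1-OE library. CCT6B, a testis-enriched alternative to CCT6A, was at 1.08 and 1.31 CPM in null and at 1.14 and 1.05 CPM in IMP1-OE.

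Null replicate 2 was below null replicate 1 in all 8 subunits, with a median log2 difference of -0.34 between these libraries, while all 12 interferon-stimulated genes were higher in null replicate 2. Its part in the CCT difference was not tested. Fits without 1 library were read for TCP1, CCT3, CCT4, CCT5 and CCT6A, not for CCT2, CCT7 or CCT8. Without null replicate 2, TCP1 had a log2 fold change of 0.47 and CCT3 of 0.11. Without null replicate 1 instead, TCP1 had 0.63 and CCT3 had 0.50. The lowest values with any 1 library left out were 0.41 for CCT4, 0.27 for CCT5 and 0.31 for CCT6A.

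**Figure D4:**
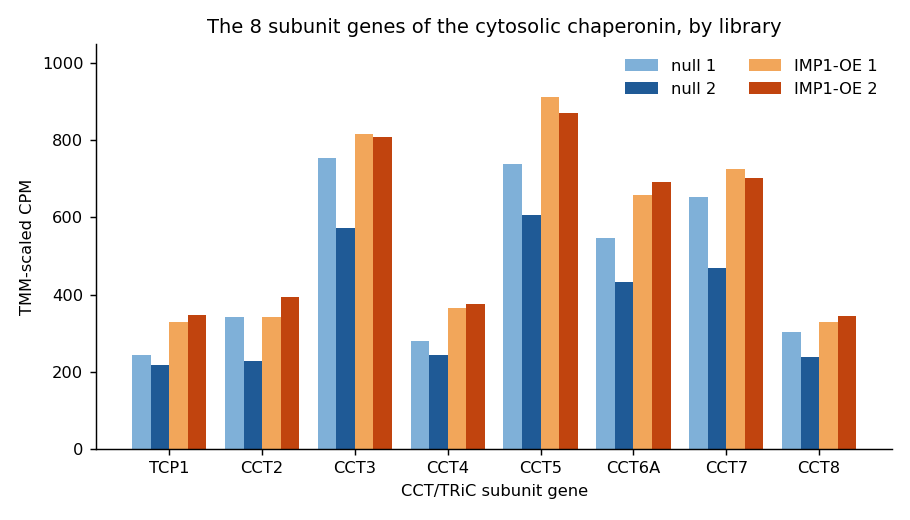
TMM-scaled CPM of the 8 CCT subunit genes, 1 bar per library, axis from 0. Null replicate 2 is the lowest library for each of the 8, and CCT2 is the subunit whose groups overlap.

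HSPD1 (HSP60) and HSPE1 (HSP10) form the mitochondrial chaperonin, and their genes lie head to head with a shared promoter region. HSPD1 was at 947 and 639 CPM in null and at 929 and 1064 CPM in IMP1-OE (log2 fold change 0.33, edgeR adjusted p 0.666). HSPE1 was at 324 and 183 CPM in null and at 363 and 305 CPM in IMP1-OE (log2 fold change 0.40, edgeR adjusted p 0.683). Null replicate 2 was the lowest library in both genes and the groups overlapped. The readthrough target HSPE1-MOB4 had 462 to 816 counts, so fragments of HSPE1 could be split with it. The TPM ratio of HSPE1 to HSPD1 was 1.52 and 1.28 in null and 1.74 and 1.28 in IMP1-OE.

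Small heat shock proteins hold unfolding proteins without using ATP. HSPB1 (HSP27) was at 266 and 473 CPM in null and at 204 and 175 CPM in IMP1-OE. The fitted level was 1.95-fold lower in IMP1-OE (log2 fold change -0.96, SE 0.30, edgeR adjusted p 0.450). The groups did not overlap, but the null libraries differed 1.78-fold, and without null replicate 2 the log2 fold change was -0.49. HSPB11, which belongs to the transport machinery of cilia, was at 11.6 and 17.3 CPM in null and at 13.5 and 9.22 CPM in IMP1-OE. The other 6 genes of the family were not tested for low counts.

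Of the 37 J proteins tested, 14 were fitted higher and 23 lower. At an unadjusted edgeR p under 0.05, 0 were higher (4.34% of all genes) and 3 were lower (8.11%, beside 5.84% of all genes): DNAJA1, DNAJA4 and DNAJC30. Both IMP1-OE libraries were below both null libraries for 11 (29.7%, beside 21.9% of all genes) and above them for 7 (18.9%, beside 21.3%). The median log2 fold change was -0.14, beside -0.02 over all genes. These shares were near those of all genes. The summed TPM of all 42 J proteins was 965 and 1052 in null and 991 and 1016 in IMP1-OE, so the sums overlapped, unlike those of HSP90 at 3552 and 3064 TPM in null and 4513 and 4575 TPM in IMP1-OE.

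Class A J proteins resemble bacterial DnaJ throughout their length. DNAJA1, the cytosolic member with the highest mean TPM of the J proteins, was at 210 and 277 CPM in null and at 149 and 175 CPM in IMP1-OE. It was 1.51-fold lower in IMP1-OE (log2 fold change -0.59, SE 0.21, edgeR adjusted p 0.457). DNAJA4 was at 12.1 and 15.5 CPM in null and at 5.90 and 5.80 CPM in IMP1-OE. It was 2.36-fold lower (log2 fold change -1.24, SE 0.34, edgeR adjusted p 0.435). In both the groups did not overlap.

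DNAJA2, which is also cytosolic, was at 128 and 120 CPM in null and at 153 and 161 CPM in IMP1-OE, a log2 fold change of 0.35 in the other direction (SE 0.16, edgeR adjusted p 0.531). DNAJA3, the mitochondrial member, was at 62.8 and 64.9 CPM in null and at 54.0 and 53.2 CPM in IMP1-OE (log2 fold change -0.25, edgeR adjusted p 0.657). So 3 of the 4 class A genes were lower and 1 was higher in IMP1-OE, each without overlap of the groups. Among all genes tested, 21.9% were lower and 21.3% higher without overlap.

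Class B proteins include the main partners of HSP70 in the stress response. DNAJB1 (HSP40) was at 59.7 and 65.3 CPM in null and at 67.0 and 67.3 CPM in IMP1-OE (log2 fold change 0.10, edgeR adjusted p 0.876). DNAJB11, a partner of HSPA5 in the endoplasmic reticulum with the highest mean TPM in its class, was at 97.0 and 70.3 CPM in null and at 102 and 90.7 CPM in IMP1-OE (log2 fold change 0.20). Its groups overlapped. Of the 9 class B genes tested, 3 were fitted higher and 6 lower, and 0 passed an unadjusted edgeR p of 0.05.

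Class C proteins share only the J domain. DNAJC30, a mitochondrial member, was at 24.8 and 23.6 CPM in null and at 16.5 and 16.4 CPM in IMP1-OE (log2 fold change -0.56, SE 0.23, edgeR adjusted p 0.490). The libraries within each group were close, and the groups did not overlap. DNAJC7, which also binds HSP90 and had the highest mean TPM in its class, was at 81.6 and 88.4 CPM in null and at 91.0 and 109 CPM in IMP1-OE (log2 fold change 0.23). DNAJC11, a mitochondrial membrane protein, was at 93.8 and 81.0 CPM in null and at 121 and 108 CPM in IMP1-OE (log2 fold change 0.39, edgeR adjusted p 0.525). DNAJC14 was at 16.3 and 10.2 CPM in null and at 19.6 and 20.5 CPM in IMP1-OE (log2 fold change 0.60, edgeR adjusted p 0.567). Of the 24 tested, 10 were fitted higher and 14 lower.

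BAG proteins bind the ATPase domain of HSP70. BAG4, which also binds the TNF receptor, was at 9.78 and 14.7 CPM in null and at 3.81 and 3.52 CPM in IMP1-OE. It was 3.33-fold lower (log2 fold change -1.73, SE 0.41, edgeR adjusted p 0.433). BAG1, which links HSP70 to the proteasome, was at 13.3 and 13.02 CPM in null and at 4.47 and 6.18 CPM in IMP1-OE. It was 2.47-fold lower (log2 fold change -1.30, SE 0.36, edgeR adjusted p 0.435). Both genes had low counts and groups without overlap.

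BAG2, which inhibits the ubiquitin ligase CHIP, was at 35.0 and 23.1 CPM in null and at 46.6 and 49.2 CPM in IMP1-OE (log2 fold change 0.72, SE 0.25, edgeR adjusted p 0.459). The TPM ratio of BAG2 to BAG1 was 0.439 and 0.296 in null and 1.74 and 1.33 in IMP1-OE. BAG1 thus had the higher TPM of the pair in null and BAG2 in IMP1-OE. TPM are divided by target length, 6651 bases for BAG2 and 1128 for BAG1. In CPM, which are not, BAG2 was the higher in every library. BAG3, which is stress-inducible and serves selective autophagy, was at 51.5 and 82.7 CPM in null and at 71.6 and 70.6 CPM in IMP1-OE, with overlapping groups. BAG5 was at 26.2 and 25.0 CPM in null and at 31.1 and 32.9 CPM in IMP1-OE (log2 fold change 0.32, edgeR adjusted p 0.623). BAG6, the most abundant by mean TPM, was at 249 and 262 CPM in null and at 268 and 282 CPM in IMP1-OE (log2 fold change 0.11).

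The heat shock transcription factors did not pass the test in either direction. HSF1 was at 55.8 and 78.6 CPM in null and at 57.8 and 68.1 CPM in IMP1-OE (log2 fold change -0.09, SE 0.23, edgeR adjusted p 0.920). HSF2 was at 17.3 and 10.3 CPM in null and at 8.56 and 11.5 CPM in IMP1-OE (log2 fold change -0.46, SE 0.39, edgeR adjusted p 0.723). The groups overlapped for both genes.

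The null libraries differed from each other more than the IMP1-OE libraries did. Of the 76 genes, 7 were more than 1.5-fold higher in null replicate 2 and 12 in null replicate 1, whereas 6 differed by more than 1.5-fold between the IMP1-OE libraries. The 7 were DNAJC4 (2.70-fold, at low counts), HSPH1 (2.43-fold), HSPA1A (1.90-fold), HSPA1B (1.80-fold), HSPB1 (1.78-fold), BAG3 (1.61-fold) and DNAJC2 (1.59-fold). HSP90AA1 (1.03-fold) and DNAJB1 (1.10-fold), which are also heat-inducible, differed little between the null libraries. Among the 12, HSPE1 (1.76-fold), HSF2 (1.68-fold), HSP90B1 (1.62-fold) and BAG2 (1.52-fold) were higher in null replicate 1. Without null replicate 1, edgeR called 10 of the 76 genes, where 6.46% of all genes tested were called, of which BAG2, CCT6A, HSP90AB1, HSP90B1, HSPA8 and HSPE1 were higher and BAG4, DNAJA1, HSPA1A and HSPB1 lower. Without null replicate 2 it called 1, HSPH1, where 0.396% of all genes were called, and without either IMP1-OE library it called 0, where 0% of all genes were called.

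**Figure D5:**
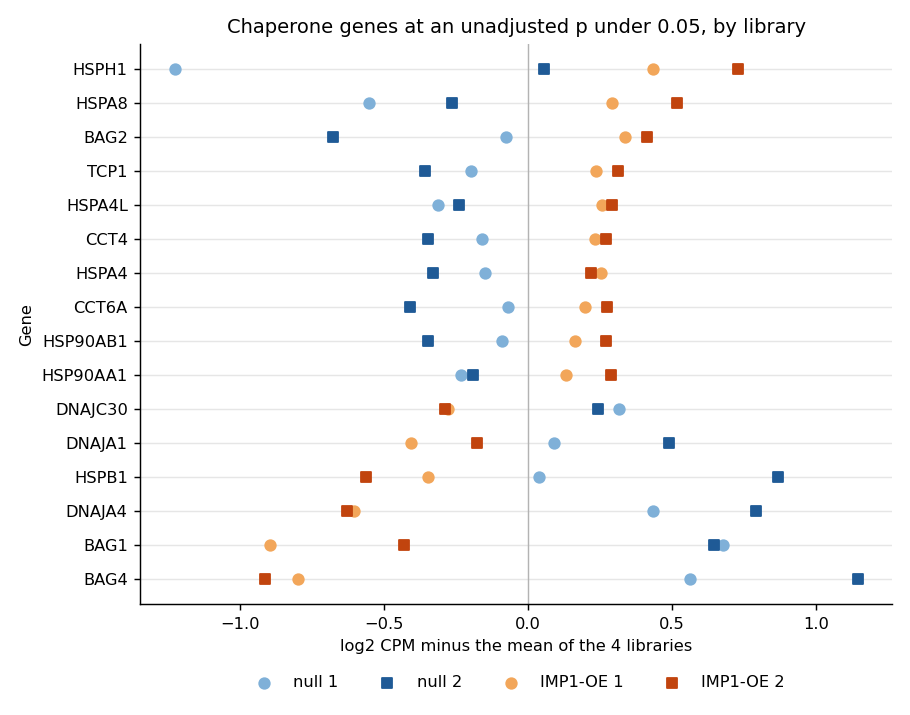
Log2 CPM of each library minus the mean of the 4 libraries, 1 point per library, for the 16 heat shock and chaperone genes at an unadjusted edgeR p under 0.05 other than HSPA12B. The null points of HSPH1 and HSPB1 lie farther apart than those of HSPA4L or BAG1.

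Partners of these proteins outside the 89 genes were taken from lists of HSP70 and HSP90 co-chaperones, prefoldin and chaperonin cofactors, mitochondrial protein quality control and other genes of the heat shock response. Of 72 tested targets, 36 were fitted higher and 36 lower, with a median log2 fold change of 0.01. At an unadjusted edgeR p under 0.05, 6 were higher (8.33%, beside 4.34% of all genes) and 3 lower (4.17%, beside 5.84%), and 0 passed the adjusted test. SGTA, a co-chaperone that hands on tail-anchored proteins, was at 65.3 and 65.7 CPM in null and at 99.6 and 103 CPM in IMP1-OE (log2 fold change 0.63, SE 0.17, edgeR adjusted p 0.435). PFDN4, a subunit of prefoldin, which delivers clients to CCT, was at 16.8 and 15.3 CPM in null and at 31.5 and 30.04 CPM in IMP1-OE (log2 fold change 0.94, SE 0.22, edgeR adjusted p 0.433). TOMM34, a cytosolic co-chaperone of mitochondrial precursors, was at 73.0 and 70.8 CPM in null and at 110 and 107 CPM in IMP1-OE (log2 fold change 0.60). These 3 had close libraries within groups and no overlap between groups.

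Among the HSP90 co-chaperones, FKBP4, an immunophilin of steroid receptor complexes, was at 168 and 102 CPM in null and at 223 and 240 CPM in IMP1-OE (log2 fold change 0.78, SE 0.27, edgeR adjusted p 0.456). CHORDC1 was at 36.9 and 45.1 CPM in null and at 57.5 and 71.4 CPM in IMP1-OE (log2 fold change 0.65, edgeR adjusted p 0.453). FNIP1, which slows the ATPase of HSP90, was at 47.4 and 43.7 CPM in null and at 23.1 and 25.9 CPM in IMP1-OE (log2 fold change -0.90, SE 0.20, edgeR adjusted p 0.433). FKBP4 and CHORDC1 were above null in both IMP1-OE libraries and FNIP1 below. ST13, an HSP70-interacting protein, was the remaining higher gene at 141 and 137 CPM in null and 197 and 174 CPM in IMP1-OE.

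HMOX1, the stress-inducible heme oxygenase, was at 12.5 and 20.8 CPM in null and at 5.71 and 6.84 CPM in IMP1-OE (log2 fold change -1.41, SE 0.38, edgeR adjusted p 0.435). The polyubiquitin gene UBB, named after its values were seen, was at 911 and 1150 CPM in null and at 726 and 735 CPM in IMP1-OE (log2 fold change -0.50). On the list of other heat shock response genes, 12 of 17 tested were fitted lower (70.6%, beside 51.9% of all genes) and 5 higher. At an unadjusted edgeR p under 0.05, 2 were higher and 2 lower (11.8% each, beside 4.34% and 5.84% of all genes). The 2 higher genes were FKBP4 and CHORDC1, which are also on the list of HSP90 co-chaperones above.

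Other partners among the 3 with the smallest p on their list did not pass an unadjusted edgeR p of 0.05. Prefoldin subunits VBP1 and PFDN2 had log2 fold changes of 0.33 (SE 0.17) and 0.34 (SE 0.18), the same direction as PFDN4. HSPBP1, a nucleotide exchange factor of HSP70, was at 114 and 132 CPM in null and at 93.5 and 101 CPM in IMP1-OE (log2 fold change -0.34, SE 0.18). The mitochondrial proteases HTRA2 and YME1L1 had log2 fold changes of -0.40 (SE 0.23) and 0.22 (SE 0.16), in opposite directions.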

How the data were processed

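RNA of 4 libraries was used. The authors deposited estimated counts and TPM, columns with kallisto's names per the file headers, for 1 target per gene. The submitters' processing notes name kallisto 0.46.2, HISAT2 2.1.0, fastp 0.21, cutadapt 3.5 and DESeq without roles. The annotation is not stated in those notes. All estimated counts were whole and entered the tests unrounded. A deposited table of the authors' own comparison holds log2 fold changes, p-values and adjusted p-values. The table also holds 2 sample names that were not used here. Per the labels' protocols the fragments were short and carried molecular identifiers. Their use against PCR copies is not described, so count floors cover counting error only (3 counts, or 0.285 to 0.328 CPM). No targets with pseudogene symbols of the HSPA, HSPD1, HSPE1, HSP90A, DNAJ or CCT families were in the table. Fragments of such transcripts could thus not be assigned separately. The other families were not searched for pseudogenes.

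Genes were tested with edgeR 4.0.16 in R 4.3.3 (TMM scaling, its default low-count filter, quasi-likelihood F test, no covariate, Benjamini-Hochberg adjustment over all 12113 genes, threshold 0.05), after a test on simulated data. Alternatives were other scalings, other low-count filters, limma 3.58.1 (voom), DESeq2 1.42.0, a block for the replicate number, and the omission of ARSI or of each library. The sum of HSPA1A and HSPA1B and DESeq2 without each library were added after the data were seen. The chi-square per degree of freedom between libraries of a group was 58.7 in null and 20.2 in IMP1-OE, so no libraries were merged. For 2 libraries against 2, the smallest two-sided p of an exact permutation test is 0.333.

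The members, lists and tests were chosen with earlier results of these data known. The text names HSPA8, HSF1 and HSF2, the 24 members with the smallest unadjusted p, the member with the highest mean TPM in each role, members called in the authors' table or without any count, small families in full, and the 3 listed partners with the smallest p per list. Other members named to complete a family were chosen after their values were seen.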

Additional observations from a re-analysis of the deposited data

How the results depend on the processing

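Of all genes, 0 were called with edgeR, and 1233 had an unadjusted p under 0.05. The number called was 22 without a low-count filter, 1 with limma-voom, 164 with DESeq2 and 15 with the replicate block. Leaving out 1 library gave 0 to 783 calls with edgeR. DESeq2 gave 1025 without null replicate 1 and 263 without null replicate 2, then 27 and 33 without the first and the other IMP1-OE library. Of the heat shock and chaperone genes, 0 were called with edgeR (0 to 10 without 1 library) and 1 with DESeq2. DESeq2 called 20 of them without null replicate 1, 2 without null replicate 2 and 0 without either IMP1-OE library. At an unadjusted p under 0.05 there were 17, and 2 to 32 without 1 library, and in the same order DESeq2 gave 26, 12, 5 and 1. Shares of all genes are not given for the DESeq2 fits without 1 library, nor for an unadjusted p without 1 library. Those counts therefore cannot be read as an excess over all genes. The median log2 fold change of the heat shock and chaperone genes, 0.08, was 0.094 with upper quartile scaling and 0.16 with library totals. Library totals moved the median of all genes from -0.02 to 0.06. Without 1 library the median of the heat shock and chaperone genes was 0.042 to 0.10 with edgeR. In the same order of libraries left out, it was 0.056, 0.11, 0.096 and 0.069 with DESeq2. Of the listed partners, 9 had an unadjusted p under 0.05 (2 to 20 without 1 library, and 14, 7, 2 and 1 with DESeq2). Their median of 0.01 was -0.0055 to 0.15 without 1 library and 0.18 with DESeq2 without null replicate 1. Labels share replicate numbers but do not say that these pair libraries, and the deviations of same-numbered libraries correlated at 0.13. With the replicate block, 0 heat shock and chaperone genes were called. Fold changes in each setting were read only for the genes named by the rule above, which leaves out HSPA1B, HSPA9 and BAG3. Among the genes read, directions turned without null replicate 2 for DNAJB11 (-0.014, DESeq2 -0.015, up to 0.45 without null replicate 1), TRAP1 (-0.0032, DESeq2 -0.0052) and HSF1 (0.17 with both tools, down to -0.32 without null replicate 1). HSF1 also turned without IMP1-OE replicate 1 (0.019, DESeq2 0.017). The cause was not tested.

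Having 2 libraries a group limits the precision of every value. Errors were wide for genes of low level such as BAG4 (SE 0.41) and DNAJA4 (SE 0.34), and 13 of the 89 genes had too few counts to be tested.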
